A study of Mus musculus with 9 samples.

Results

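The livers of mice that had lived in orbit, with or without artificial gravity, were compared with the livers of mice kept on the ground. The mean of the 3 microgravity libraries (MG) and the 3 artificial-gravity libraries (AG) was set against the 3 ground control libraries (GC), so that all 9 libraries of the study entered the comparison. Genes were then sorted by whether all 6 flight libraries lay on the same side of all 3 ground libraries, whatever the gravity. Of 49585 gene rows, 11884 had enough reads to be tested. Of these, 831 genes (6.99%) had every flight library on one side of every ground library, 409 of them above (3.44%) and 422 below (3.55%).

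All animals were male C57BL/6J mice, bought at 5 weeks of age and 14 weeks old when sampled, with no added allele or agent. MG mice lived in weightlessness on the International Space Station for about 35 days. AG mice were housed there for the same time in a centrifuge, which spun at 77 rpm to give them 1 g. GC mice were kept for 35 days at 1 g in Tsukuba in housing that copied the flight. Each flight group held 6 mice, and both were killed 2 days after splashdown, so flight, landing and the days after it cannot be told apart. The flight mice came from the Jackson Laboratory and the ground mice from Charles River, so supplier and flight cannot be told apart either. The labels do not tie a library to an animal, so the p-values rest on how much these libraries vary, and part of that variation may be technical. RNA from powdered liver was depleted of ribosomal RNA and sequenced, and in such bulk RNA fewer cells of a type and less RNA per cell cannot be told apart.

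As background, the liver makes fatty acids and cholesterol under the control of the SREBP transcription factors, which insulin and low sterol levels activate, and it burns fatty acids under the control of PPAR-alpha, which fatty acids activate in fasting. Many liver genes differ between male and female mice, and the pattern in which the pituitary releases growth hormone, read in the hepatocyte through STAT5, sets most of that difference. Male mice secrete large amounts of major urinary proteins, small carriers of pheromones that the liver makes and the kidney excretes.

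Total gene counts ranged from 6194521 in GC 2 to 8957331 in MG 1. Levels are given as CPM, counts scaled by library size and TMM factor, and 3 reads in a library equalled 0.339 to 0.473 CPM. The 10 hepatocyte markers summed to 89733 to 104347 CPM in GC and 97825 to 123321 CPM in flight. AG 1 was the lowest library on the first and second principal components, at -36.7 and -35.7, and the others lay between -26.0 and 25.4 on the first and between -21.1 and 25.0 on the second. The 12 macrophage markers summed to 1446.5 CPM in AG 1 and to between 293 and 395 CPM in the other 8 libraries. The 12 skeletal muscle markers were highest in GC 2 (694 CPM), MG 2 (475 CPM), GC 1 (241 CPM) and AG 1 (99.4 CPM), and summed to at most 16.9 CPM in the other 5. Beyond the values without these libraries and those with muscle markers as a covariate, the part of these cells in the results was not tested.

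In flight livers, 8 of 17 tested genes of fatty acid synthesis, 7 of 25 of cholesterol synthesis and uptake and 8 of 22 male-biased genes were lower than on the ground, and none of these lists had a gene called higher. Of fatty acid oxidation and PPAR-alpha target genes 4 of 36 were higher and 1 lower, and of lipoprotein genes 4 of 26 were higher. A gene was called when its p from edgeR's quasi-likelihood test, adjusted by Benjamini and Hochberg's method over all tested genes, was under 0.05, and so 42 genes rose (0.353%) and 77 fell (0.648%), 119 in all (1% of the 11884 tested). Of the 119, 48 changed at least 2-fold, and 111 had every flight library on one side of every ground library. The last gene called was H2-Q10 (adjusted p = 0.0493) and the first not called was Ndufb7 (adjusted p = 0.0525). The smallest adjusted p was 0.0101, and 1485 genes had an unadjusted p below 0.05.

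The number of calls rested on few ground libraries. Without GC 1 it was 13, and without GC 2 or without GC 3 edgeR called 0 genes, with 959 and 1135 at an unadjusted p below 0.05, so none of the calls named here held without GC 2 or without GC 3. The number was 81 without MG 1, 56 without MG 2 and 47 without MG 3. It was 144 without AG 1, 98 without AG 2 (26 of them higher) and 229 without AG 3. Without the 4 libraries highest in muscle markers, which leaves 1 ground library, 1 gene was called higher and 20 lower, and with the 6 flight libraries fitted as 1 group 13 genes were called. DESeq2 called 322 genes, all 119 among them, and limma-voom called 117, 108 of them among the 119. None of the 119 genes changed direction in any of the settings in which it was tested. For the 111 of them without overlap, leaving out libraries could hardly have reversed the direction. Their kept direction is therefore no independent support.

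**Figure D1:**
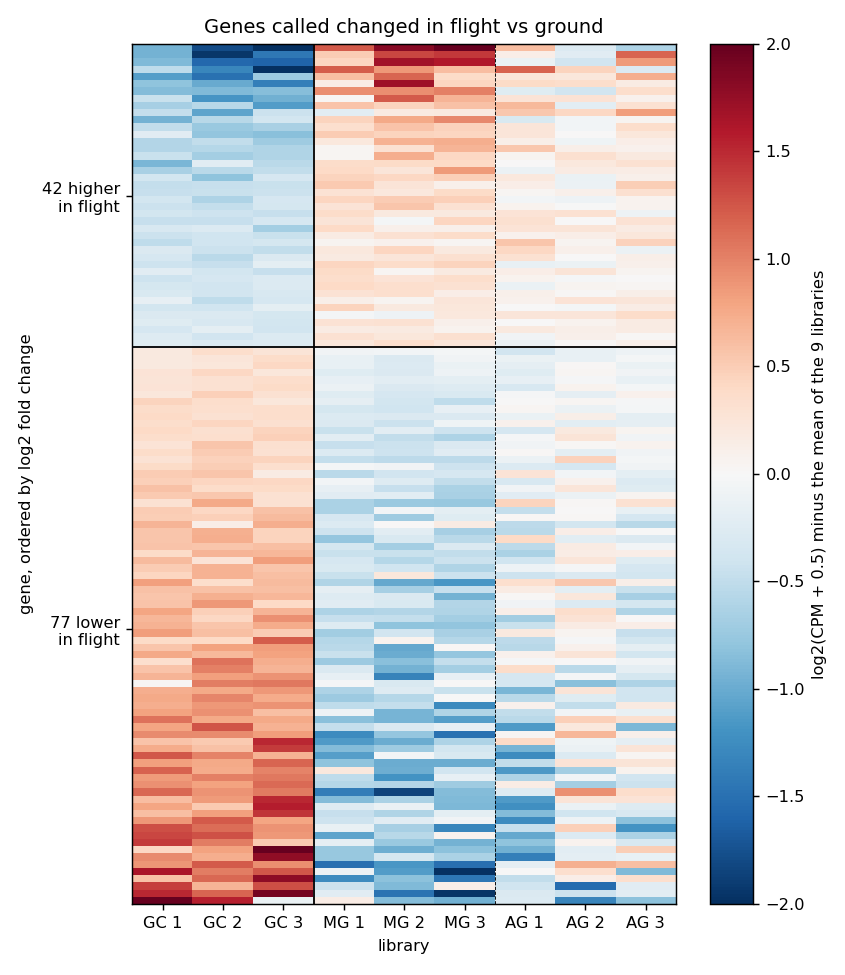
Each line is 1 of the 119 called genes, ordered by log2 fold change, and each column is 1 of the 9 libraries. Colour gives log2(CPM + 0.5) minus the gene's mean over the 9 libraries, and the 42 genes called higher and the 77 called lower form separate blocks. MG lies farther from GC than AG for 100 of the 119 genes.

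Fatty acid synthesis was the list with most calls per tested gene. Of its 17 tested genes 8 fell and 0 rose at the same threshold, and 15 had a negative sign, with a median log2 fold change of -0.85 over the list, where the median of all tested genes was 0.01. Elovl6 (chr3:129532355-129638495, plus strand, GRCm38), which lengthens palmitate to stearate, stood at 268, 214 and 215 CPM in GC 1 to 3, 70.9, 66.6 and 58.8 CPM in MG 1 to 3 and 86.9, 176 and 158 CPM in AG 1 to 3. All 6 flight libraries were below the lowest ground library, and the MG libraries were lower than any AG library. The log2 fold change was -1.28 ± 0.18 (SE) and the adjusted p 0.0132 by edgeR. Scd1, the desaturase that turns stearate into oleate, fell by a log2 fold change of -1.48 ± 0.24 (adjusted p = 0.0214 by edgeR). Its levels were 6599, 5518 and 6094 CPM in GC 1 to 3, 1135, 825 and 1636 CPM in MG 1 to 3 and 2495, 5578 and 3794 CPM in AG 1 to 3. Here flight and ground overlapped, with AG 2 just above GC 2 and the other 5 flight libraries below all of ground.

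The enzymes upstream of them fell as well. Fasn, the fatty acid synthase, had 952, 1120.3 and 1769 CPM in the ground libraries and, in flight, a lowest of 283, a median of 368 and a highest of 747 CPM. The groups did not overlap, and its log2 fold change was -1.48 ± 0.27 (adjusted p = 0.0354). The carboxylases that supply malonyl-CoA were both below every ground library in all 6 flight libraries, Acaca with 265, 296 and 247 CPM on the ground and a lowest of 114, a median of 146 and a highest of 198 CPM in flight, and Acacb with 356, 297 and 244 CPM and a lowest of 62.2, a median of 123 and a highest of 153 CPM. Their log2 fold changes were -0.84 ± 0.14 and -1.41 ± 0.26. Acss2, which makes acetyl-CoA from acetate, had 129.6, 101 and 149 CPM on the ground and a lowest of 56.4, a median of 64.9 and a highest of 99.3 CPM in flight (log2 fold change -0.87 ± 0.15), and on the other strand it overlaps Gss, Ggt7 and Acss2os. Acly, which makes acetyl-CoA from citrate, and Me1, a source of NADPH, changed by -0.85 ± 0.15 and -0.74 ± 0.13 on the log2 scale. The adjusted p of these 5 genes lay between 0.0293 and 0.037 by edgeR.

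Of the 9 members not called, Thrsp, a small protein that promotes lipogenesis, had all flight libraries below ground with a log2 fold change of -1.96 ± 0.44 (adjusted p = 0.0725). The transcription factor gene Srebf1 had -0.95 ± 0.37 (adjusted p = 0.309), and Mlxipl, which encodes the glucose-responsive factor ChREBP, had 0.24 ± 0.18 (adjusted p = 0.632). G0s2, an inhibitor of the triglyceride lipase ATGL, fell from 43.9, 48.5 and 49.7 CPM in GC to a lowest of 10.6, a median of 18.7 and a highest of 29.9 CPM in flight, with a log2 fold change of -1.23 ± 0.18 (adjusted p = 0.016). For G0s2 14% of exon reads were placed uniquely, and the gene overlaps Lamb3 on the other strand. It was the 1 called gene of 19 tested in the list of triglyceride assembly and lipid droplets. With GC 1, GC 2 or GC 3 omitted the fatty acid synthesis list had 0 members called, with MG 1 omitted 4, with MG 2 omitted 5 and with MG 3 omitted 2, and its median lay between -0.91 and -0.72 when any 1 library was left out. It had 5 members called with muscle markers as a covariate, 2 without the 4 libraries highest in them and 0 with flight as 1 group.

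Genes of cholesterol synthesis and uptake had negative log2 fold changes in all 25 tested cases, and 7 fell at the same threshold. The median of the list was -0.85. Pmvk, which phosphorylates mevalonate phosphate, had 19.0, 22.2 and 33.9 CPM in GC 1 to 3, 8.82, 7.93 and 10.7 CPM in MG 1 to 3 and 6.56, 9.20 and 9.81 CPM in AG 1 to 3. Every flight library was below every ground library, and the ranges of MG and AG overlapped. The log2 fold change was -1.50 ± 0.19 (SE, adjusted p = 0.0107 by edgeR).

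Another 5 called members act between mevalonate and cholesterol. Idi1, an isomerase of the isoprenoid units, had 80.1, 68.4 and 141 CPM on the ground and a lowest of 15.7, a median of 29.3 and a highest of 37.2 CPM in flight (log2 fold change -1.76 ± 0.26), with 72.4% of its exon reads placed uniquely. Dhcr7, which completes cholesterol, had 42.9, 38.3 and 67.5 CPM and a lowest of 13.1, a median of 17.5 and a highest of 30.6 CPM (-1.38 ± 0.24), and Nsdhl, a sterol dehydrogenase, had 30.5, 25.2 and 52.8 CPM and a lowest of 7.17, a median of 14.4 and a highest of 15.9 CPM (-1.49 ± 0.27). In each of these 3 genes GC 3 was the highest of all libraries. Msmo1 and Cyp51, which remove methyl groups from lanosterol and its products, changed by -1.75 ± 0.34 and -1.03 ± 0.21. Msmo1 overlapped, as AG 3 at 45.7 CPM was above GC 1 at 43.4 CPM. The list had 0 members called when GC 2 or GC 3 was omitted, 2 when GC 1 or MG 3 was, 3 for MG 1, 4 for MG 2 and 12 for AG 3, and its median was -0.49 without GC 3. It had 14 members called with DESeq2 or with no filter, 12 with muscle markers as a covariate, 11 with library totals as the scaling or with a mean count of at least 50, 3 with edgeR's robust setting and 2 with flight as 1 group. Without the 4 libraries highest in muscle markers its median was -1.47. The only ground library left there was GC 3, the highest library for Idi1, Dhcr7 and Nsdhl, so this value rests on GC 3.

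Members that did not pass had the same sign. Fdps and Lss had all 6 flight libraries below ground with -1.39 ± 0.29 (adjusted p = 0.0542 by edgeR) and -0.96 ± 0.20 (adjusted p = 0.0532), just outside the threshold. Srebf2, the transcription factor of this pathway, had -0.30 ± 0.20 (adjusted p = 0.59).

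Genes of fatty acid oxidation and other PPAR-alpha targets moved less evenly. Of 36 tested genes 4 rose and 1 fell, the median log2 fold change was 0.27, and 30 of the 36 had a positive sign. Cyp4a14, which hydroxylates the end of fatty acids and is a classical PPAR-alpha target, had 430.1, 214 and 308 CPM in GC 1 to 3, 1185, 2093 and 2202 CPM in MG 1 to 3 and 906, 711 and 1861 CPM in AG 1 to 3. All flight libraries were above ground, with AG 3 inside the range of the MG libraries. The log2 fold change was 2.20 ± 0.35 (adjusted p = 0.0214 by edgeR). Its neighbour Cyp4a31 rose from 5.63, 3.62 and 5.85 CPM to a lowest of 6.90, a median of 10.1 and a highest of 14.7 CPM in flight (1.02 ± 0.20).

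Cd36, a fatty acid uptake receptor, had 64.4, 54.2 and 57.3 CPM on the ground and a lowest of 89.7, a median of 105 and a highest of 144 CPM in flight, with no overlap. Its log2 fold change was 0.88 ± 0.14 (adjusted p = 0.0214 by edgeR). Vnn1, a pantetheinase that PPAR-alpha induces, had 58.8, 35.4 and 41.1 CPM and a lowest of 83.0, a median of 98.0 and a highest of 189 CPM (1.30 ± 0.24, adjusted p = 0.0356). Fabp1, the fatty acid binding protein of the hepatocyte and also a PPAR-alpha target, went the other way, with 2873, 3269 and 2687 CPM on the ground and a lowest of 1154, a median of 1595 and a highest of 2580.2 CPM in flight (-0.85 ± 0.16, adjusted p = 0.0356). All 6 flight libraries were below ground, with AG 1 the nearest.

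The enzymes of mitochondrial beta-oxidation in the list were not called. Acadm and Acadl, the dehydrogenases of medium and long chains, had all flight libraries above ground with log2 fold changes of 0.52 ± 0.11 and 0.39 ± 0.08 (adjusted p = 0.0573 and 0.0559 by edgeR). Cpt1a, which controls entry into mitochondria, had 0.15 ± 0.15 (adjusted p = 0.741), and Pdk4 had -0.09 ± 0.39 (adjusted p = 0.955). Fgf21, a hormone that PPAR-alpha induces in fasting, had 0.938, 0.315 and 0.600 CPM in GC 1 to 3, 1.13, 3.15 and 4.49 CPM in MG 1 to 3 and 1.68, 1.37 and 0.460 CPM in AG 1 to 3. The groups overlapped (log2 fold change 1.51 ± 0.59, adjusted p = 0.314 by edgeR). Its reads were few, with a mean count of 4.67 on the ground and at most 3 reads in GC 2 and in AG 3. Without MG 1 the list had 8 members called higher, without AG 2 it had 2, and without MG 3 or any 1 ground library it had 0.

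Lipoprotein and lipid export genes had 4 called higher and 0 lower of 26, with a median of 0.11. Apoa4 (chr9:46240696-46243459, plus strand), an apolipoprotein of triglyceride-rich particles, showed the largest rise of all called genes. Its levels were 108, 59.7 and 46.4 CPM in GC 1 to 3, 487, 732 and 904 CPM in MG 1 to 3 and 319, 172 and 135 CPM in AG 1 to 3. The lowest flight library, AG 3, was above the highest ground library, GC 1, and every MG library was above every AG library. The log2 fold change was 2.42 ± 0.36 (SE, adjusted p = 0.016 by edgeR), and 46.9% of its exon reads were placed uniquely.

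The remaining 3 genes rose by less than 2-fold. Lipc, the hepatic lipase, had 118, 112 and 107 CPM on the ground and a lowest of 139.8, a median of 153 and a highest of 173 CPM in flight, a log2 fold change of 0.47 ± 0.08 (adjusted p = 0.0296 by edgeR). Apoh, beta-2-glycoprotein I, had 1308, 1258 and 1526 CPM and a lowest of 1568, a median of 2052 and a highest of 2379 CPM (0.53 ± 0.10), and Abcg5, which with Abcg8 exports sterols into bile, had 61.8, 56.1 and 52.7 CPM and a lowest of 74.5, a median of 80.7 and a highest of 94.97 CPM (0.53 ± 0.10). No flight library overlapped ground for any of the 3. Abcg8, transcribed from the neighbouring start in the other direction, had 0.43 ± 0.13 (adjusted p = 0.175). The list had 1 member called without MG 1, AG 2 or GC 1, 2 without MG 2 or MG 3, and 0 without GC 2 or GC 3.

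Promoter windows from RefSeq (GRCm38.p6, 250 bases before to 50 after the annotated start) were read for 10 called genes and are shown for 5, because they stand for the groups that were lower (fatty acid synthesis, male-biased) and higher (fatty acid uptake, lipoproteins) in flight. Each reads in the direction of its gene. Capitals mark matches on either strand to CCAAT (the NF-Y motif, ATTGG when on the other strand) or to TGACNNNGC (the antioxidant response motif), and Elovl6 had no match. The Elovl6 window lies at chr3:129532136-129532435, plus strand, Acss2 at chr2:155517793-155518092, plus strand, Serpina1e at chr12:103956848-103957147, minus strand, Cd36 at chr5:17835847-17836146, minus strand and Lipc at chr9:70952172-70952471, minus strand.
Elovl6: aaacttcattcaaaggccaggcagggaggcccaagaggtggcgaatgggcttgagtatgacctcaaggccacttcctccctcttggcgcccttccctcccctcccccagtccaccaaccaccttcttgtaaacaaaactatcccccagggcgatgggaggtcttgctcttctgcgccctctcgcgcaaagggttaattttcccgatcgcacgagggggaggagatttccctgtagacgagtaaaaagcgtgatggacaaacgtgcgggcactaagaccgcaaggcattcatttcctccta
Acss2: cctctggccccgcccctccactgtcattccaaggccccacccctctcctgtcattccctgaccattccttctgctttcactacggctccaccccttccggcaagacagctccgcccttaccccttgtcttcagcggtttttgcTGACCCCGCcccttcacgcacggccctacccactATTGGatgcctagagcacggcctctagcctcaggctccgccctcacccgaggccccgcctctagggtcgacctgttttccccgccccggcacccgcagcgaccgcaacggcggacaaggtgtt
Serpina1e: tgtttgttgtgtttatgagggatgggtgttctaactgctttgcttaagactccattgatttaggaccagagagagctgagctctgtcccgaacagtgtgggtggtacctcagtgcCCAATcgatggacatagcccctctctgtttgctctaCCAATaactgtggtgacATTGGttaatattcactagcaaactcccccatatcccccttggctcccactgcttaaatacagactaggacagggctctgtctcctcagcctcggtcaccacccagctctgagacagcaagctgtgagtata
Cd36: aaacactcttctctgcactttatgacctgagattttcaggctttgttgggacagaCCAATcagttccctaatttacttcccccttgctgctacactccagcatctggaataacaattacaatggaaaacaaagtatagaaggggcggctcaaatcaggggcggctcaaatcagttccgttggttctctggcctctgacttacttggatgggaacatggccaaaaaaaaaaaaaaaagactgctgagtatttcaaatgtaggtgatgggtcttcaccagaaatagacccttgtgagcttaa
Lipc: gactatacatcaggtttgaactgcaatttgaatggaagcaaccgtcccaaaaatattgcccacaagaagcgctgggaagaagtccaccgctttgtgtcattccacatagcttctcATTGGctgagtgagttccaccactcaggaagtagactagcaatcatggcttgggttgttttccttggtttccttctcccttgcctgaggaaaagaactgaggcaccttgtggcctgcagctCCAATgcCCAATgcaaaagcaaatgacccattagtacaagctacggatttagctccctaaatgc
Acss2 and Serpina1e were lower in flight and Cd36 and Lipc higher, and all 4 windows held CCAAT. Of the 10 windows read for called genes of these 4 lists, 5 held it, the fifth being that of Abcg5, and those of Elovl6, Acaca, C6, Apoa4 and Apoh held none of the motifs. The windows of Cd36, Acaca and Apoh lie far inside their genes, which span chr5:17781690-17888801, chr11:84129672-84401651 and chr11:108343354-108414396. Those of Acaca and Apoh begin at 84195188 and 108395047, and the Serpina1e window also lies inside its gene. Other starts of these genes were not searched.

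Among tested genes, the NF-Y motif was present in 38.7% of the 9182 windows of tested genes, in 28 of 56 windows of genes called lower and in 16 of 31 of genes called higher (51.6%). Among called cholesterol genes 5 of 6 windows held it (83.3%) and among called fatty acid synthesis genes 4 of 7 (57.1%). The sterol regulatory element searched as TCACNCCAC was in 1.12% of all windows and in 0 of those 6 and 0 of those 7. The other motifs were CACGTG (10.2% of all windows, 5 of 31 higher and 2 of 56 lower), a direct repeat of AGGTCA with 1 base between its copies (0.0436%, 0 and 0), TTCNNNGAA (6.94%, 0 and 3), TGACNNNGC (14.7%, 9 and 8) and TATAAA (7.22%, 6 and 7). These are matches of letters in short windows, each at 1 annotated start of its gene.

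Elovl6 shares its start region with Gm35986, a gene on the other strand that begins inside the Elovl6 window (chr3:129527467-129532388, minus strand). Gm35986 was called lower as well, from 6.68, 5.04 and 3.45 CPM on the ground to a lowest of 0.924, a median of 1.41 and a highest of 2.36 CPM in flight, a log2 fold change of -1.73 ± 0.32 (adjusted p = 0.0356 by edgeR). Whether reads were counted by strand is not given in the sources used here, and where they overlap reads of the 2 genes cannot be told apart. The same limit holds for other called genes that overlap a gene on the opposite strand, among them Apoh with Prkca, Abcg5 with Abcg8, Alas2 with Apex2, Hsd11b1 and G0s2 with Lamb3, Acot3 with 4732463B04Rik, and Syt3 with 1700008O03Rik.

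Genes that are typically higher in male livers had negative log2 fold changes in all 22 tested cases, and 8 fell. The median of the list was -0.88. Cyp7b1, which hydroxylates oxysterols, had 319, 298 and 333 CPM in GC 1 to 3, 139, 95.5 and 111 CPM in MG 1 to 3 and 201, 227 and 148 CPM in AG 1 to 3 (chr3:18071950-18243338, minus strand). No flight library reached ground, and the log2 fold change was -1.09 ± 0.14 (SE, adjusted p = 0.0107 by edgeR). Serpina1e, a male-typical member of the alpha-1-antitrypsin family, had 5593, 4411 and 7375 CPM in GC 1 to 3, 1677, 706 and 505 CPM in MG 1 to 3 and 1604, 1463 and 1687 CPM in AG 1 to 3. Here the AG libraries and MG 1 were alike, and MG 2 and MG 3 were lower. It fell by a log2 fold change of -2.23 ± 0.30 (adjusted p = 0.0109), with 75.1% of exon reads placed uniquely.

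Further called members were C6, a component of the membrane attack complex, with 382, 379 and 419.6 CPM on the ground and a lowest of 166, a median of 222 and a highest of 275 CPM in flight (-0.79 ± 0.12), and C4a, the sex-limited protein of the mouse complement locus, with 84.0, 55.0 and 63.8 CPM and a lowest of 5.81, a median of 19.5 and a highest of 34.1 CPM (-1.83 ± 0.34). The steroid hydroxylase Cyp2d9 fell by 0.57 ± 0.11 on the log2 scale, and Cyp4a12b, a fatty acid hydroxylase of the male liver and kidney, by 0.91 ± 0.14. The libraries overlapped for Cyp4a12b, in which AG 2 at 75.6 CPM was above GC 2 at 66.8 CPM. Selenbp2 had the list's lowest log2 fold change, -2.77 ± 0.58, and did not pass (adjusted p = 0.0542 by edgeR). The list had 1 member called without GC 1, 0 without GC 2 or GC 3, 5 without MG 2 and 12 without AG 3.

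The major urinary protein genes on chromosome 4 were the largest family among the calls, with 9 members, all lower. They lay in stretches that held 7 and 14 tested genes, and of all tested genes 0.648% were called lower. Mup1 had 376, 419 and 432 CPM in GC 1 to 3, 146, 90.6 and 185 CPM in MG 1 to 3 and 134, 199 and 159 CPM in AG 1 to 3, and no flight library overlapped ground (log2 fold change -1.43 ± 0.19, adjusted p = 0.0107 by edgeR). Mup2 had 534, 507 and 385 CPM on the ground and a lowest of 101, a median of 139 and a highest of 220.2 CPM in flight (-1.70 ± 0.22). Reads could not be assigned firmly within the family, since 10.9% of Mup1 exon reads and 0.64% of Mup2 exon reads were placed uniquely. Calls of members that share reads are not independent of each other. Mup21, of which 98.4% were unique, had 76.4, 73.9 and 147 CPM and a lowest of 23.1, a median of 39.2 and a highest of 67.7 CPM (-1.37 ± 0.22, adjusted p = 0.0214). Mup8, Mup11, Mup14, Mup16, Mup17 and Mup18, named after their values were seen, had log2 fold changes between -1.33 and -0.88. Mup3 and Mup20, which were tested in the male-biased list, had -0.20 ± 0.10 (adjusted p = 0.451) and -0.33 ± 0.24 (adjusted p = 0.621).

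Genes typically higher in female livers had a median log2 fold change of 1.06 over 13 tested members, 12 of them positive, and 2 rose. Abcd2, a peroxisomal transporter of very long fatty acids, had 8.44, 6.30 and 11.1 CPM in GC 1 to 3, 28.6, 42.4 and 24.4 CPM in MG 1 to 3 and 22.1, 22.0 and 31.3 CPM in AG 1 to 3. Its flight libraries were all above ground (log2 fold change 1.71 ± 0.24, adjusted p = 0.0121 by edgeR). Acot3, a peroxisomal acyl-CoA thioesterase, had 17.01, 10.4 and 10.2 CPM on the ground and a lowest of 24.4, a median of 50.7 and a highest of 103 CPM in flight (2.11 ± 0.37, adjusted p = 0.0304), with 78.1% of exon reads unique. Both genes also take part in peroxisomal fatty acid metabolism. Members known as strongly female-typical did not pass, among them the transcription factor gene Cux2 with 2.49 ± 1.00 (adjusted p = 0.33) and the cytochrome P450 gene Cyp2b9 with 2.42 ± 1.07 (adjusted p = 0.387). Another 9 genes of the list of 22 had too few reads to be tested. Without AG 1 or without AG 3 the list had 4 members called, without MG 2 or MG 3 it had 1, and without any 1 ground library it had 0.

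Of 15 growth hormone and STAT5 signalling genes, 1 rose and 0 fell. Socs2, which STAT5 induces and which damps growth hormone signalling, had 19.0, 10.7 and 5.40 CPM in GC 1 to 3, 63.1, 49.7 and 41.7 CPM in MG 1 to 3 and 61.9, 36.9 and 22.4 CPM in AG 1 to 3. The lowest flight library, AG 3, was above the highest ground library, GC 1. The log2 fold change was 1.93 ± 0.39 (SE, adjusted p = 0.0459 by edgeR). The call of Socs2 held in 11 of 23 settings and in 2 of the 9 that leave out 1 library. The list had 0 calls with library totals, limma-voom, edgeR's robust setting or flight as 1 group, and 0 without GC 1, GC 2, GC 3, MG 1, MG 2 or AG 2. Cish, another STAT5 target, had 1.04 ± 0.29 (adjusted p = 0.157). Igf1, the growth factor that growth hormone induces in the liver, had 748, 671 and 685 CPM on the ground and a lowest of 624, a median of 669.8 and a highest of 830.3 CPM in flight. Its log2 fold change of -0.01 ± 0.11 in gene counts had a 95% interval too narrow to hold a 2-fold change. Its intron reads are given below.

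The list of xenobiotic metabolism had 2 genes called higher and 1 lower of 23. Cyp2c38, an epoxygenase of the Cyp2c cluster, had the smallest p of all genes. Its levels were 32.4, 32.0 and 32.6 CPM in GC 1 to 3, 113, 113 and 119 CPM in MG 1 to 3 and 50.01, 45.4 and 75.7 CPM in AG 1 to 3. The ground libraries differed by less than 1 CPM, all flight libraries were above them, and the MG libraries were above every AG library. The log2 fold change was 1.32 ± 0.15 (SE, adjusted p = 0.0101 by edgeR). Cyp3a25 rose from 367, 372 and 377 CPM to a lowest of 520.4, a median of 605 and a highest of 659 CPM in flight (0.67 ± 0.09), and Ces2c, a carboxylesterase, fell from 89.5, 89.6 and 82.8 CPM to a lowest of 16.2, a median of 37.4 and a highest of 73.9 CPM (-1.34 ± 0.16, adjusted p = 0.0107). For Ces2c 67.5% of exon reads were unique. Neighbours differed within the Cyp2c cluster, as Cyp2c67, named after its values were seen, fell by 0.60 ± 0.10 on the log2 scale (adjusted p = 0.0271) and 62.7% of its exon reads were unique.

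Of the genes of glucose metabolism and insulin action 1 rose and 1 fell of 21. Foxo1, a transcription factor that drives glucose production and that insulin holds out of the nucleus, had 58.8, 58.6 and 56.4 CPM on the ground and a lowest of 67.0, a median of 84.3 and a highest of 93.2 CPM in flight (log2 fold change 0.47 ± 0.09, adjusted p = 0.0395 by edgeR). AG was farther from ground than MG for this gene. Igfbp2, an insulin-like growth factor binding protein, had 437, 601 and 438 CPM in GC 1 to 3, 229, 213 and 209 CPM in MG 1 to 3 and 483, 362 and 437 CPM in AG 1 to 3, with AG 1 and AG 3 within the ground range and the other flight libraries below it (-0.69 ± 0.12, adjusted p = 0.0324). The calls of Foxo1 and Igfbp2 were lost without any 1 of the ground or MG libraries, without AG 2, with muscle markers as a covariate and with flight as 1 group. Pck1, the gluconeogenic enzyme, had 3644, 2617 and 2201 CPM and a lowest of 3541, a median of 4580.4 and a highest of 5784 CPM, and did not pass (0.72 ± 0.21, adjusted p = 0.163).

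Of 16 glucocorticoid-related genes 2 rose and 0 fell, and the median was 0.48. Hsd11b1, which regenerates active glucocorticoid inside the cell, had 225, 229 and 222 CPM in GC and a lowest of 320.2, a median of 345 and a highest of 391 CPM in flight, with no overlap (log2 fold change 0.64 ± 0.08, adjusted p = 0.0107 by edgeR). Serpina6, the carrier of glucocorticoid in blood, had 196, 212 and 219 CPM and a lowest of 287, a median of 293 and a highest of 411 CPM (0.64 ± 0.11, adjusted p = 0.0296). Classical targets of the receptor did not pass, such as Fkbp5 with 0.50 ± 0.28 (adjusted p = 0.501) and Tsc22d3 with -0.08 ± 0.20 (adjusted p = 0.91). The list had 0 calls without any 1 ground library and 1 without any 1 MG library. Hsd11b1 overlaps Lamb3 on the other strand, and 66.1% of its exon reads were unique.

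Trp53inp1, a stress-induced partner of p53, and Gadd45g, a growth arrest gene, were the 2 genes called higher of 21 p53 and cell cycle genes. Trp53inp1 had 68.6, 69.6 and 68.0 CPM on the ground and a lowest of 106, a median of 119.6 and a highest of 167 CPM in flight (log2 fold change 0.90 ± 0.15, adjusted p = 0.0259 by edgeR). Gadd45g had 10.2, 8.82 and 6.75 CPM and a lowest of 20.4, a median of 23.7 and a highest of 60.04 CPM (1.70 ± 0.34, adjusted p = 0.0446), where MG 2 was far above the other flight libraries. Cdkn1a, the cell cycle inhibitor that p53 induces, had 6.45, 6.62 and 9.76 CPM in GC 1 to 3, 4.52, 18.8 and 48.2 CPM in MG 1 to 3 and 11.9, 11.6 and 45.8 CPM in AG 1 to 3. The list had 0 genes called higher without any 1 ground library and 1 without MG 2, MG 3, AG 1 or AG 2. Cdkn1a was spread in flight from below ground to several times above it, and it was not called (1.62 ± 0.69, adjusted p = 0.363).

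Secreted proteins of inflammation and complement had few calls. Of 23 acute phase genes 2 fell, Orm1 from 568.2, 578 and 489 CPM to a lowest of 252, a median of 340.1 and a highest of 411 CPM in flight (-0.68 ± 0.11, adjusted p = 0.0265 by edgeR) and Saa1, serum amyloid A. The Saa1 levels were 231, 106 and 32.9 CPM in GC 1 to 3, 40.1, 19.5 and 18.4 CPM in MG 1 to 3 and 29.7, 14.1 and 20.2 CPM in AG 1 to 3. The ground libraries differed widely among themselves and MG 1 was above GC 3, so the groups overlapped (log2 fold change -2.40 ± 0.47, adjusted p = 0.043). Of 30 complement and coagulation genes 2 fell, the membrane attack components C9, with 642, 599.5 and 621 CPM on the ground and a lowest of 394, a median of 411 and a highest of 527 CPM in flight (-0.53 ± 0.09), and C8b, with 406, 392 and 389.6 CPM and a lowest of 207, a median of 242 and a highest of 308 CPM (-0.65 ± 0.11). The complement list had 0 calls without MG 2, without MG 3 or without any 1 ground library. The acute phase list had 0 without any 1 ground library and 1 without any 1 MG library or AG 2. H2-Q10, a secreted class I molecule of the liver, was the 1 of 21 antigen presentation genes that fell (-0.57 ± 0.12), a call lost without any 1 MG library.

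Nuclear genes of the respiratory chain had 2 called lower of 29, with 24 negative signs and a median of -0.14. Ndufb3, a subunit of complex I, had 45.7, 47.1 and 48.5 CPM in GC and a lowest of 32.7, a median of 33.8 and a highest of 37.4 CPM in flight (-0.46 ± 0.08, adjusted p = 0.0225 by edgeR). Cox5b, a subunit of cytochrome c oxidase, had 127, 150.4 and 134 CPM and a lowest of 85.2, a median of 93.1 and a highest of 115 CPM (-0.51 ± 0.09), with 69.5% of exon reads unique. The list had 0 calls without MG 2, without MG 3 or without any 1 ground library, and 1 with muscle markers as a covariate. Ndufb10, Ndufa13 and Atp5k, which were outside the list and named after their values were seen, fell by 0.59 ± 0.08, 0.52 ± 0.08 and 1.11 ± 0.19 on the log2 scale. The 13 genes of the mitochondrial genome had negative signs throughout and 0 calls by edgeR, with 4 at an unadjusted p below 0.05. The lowest p among them was that of mt-Nd4 (log2 fold change -0.63 ± 0.16, adjusted p = 0.115).

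Nnt, the mitochondrial transhydrogenase, is the gene of which many C57BL/6J colonies carry a deletion. It had 54.1, 52.5 and 57.03 CPM in GC 1 to 3, 91.2, 86.9 and 84.8 CPM in MG 1 to 3 and 63.0, 71.2 and 70.6 CPM in AG 1 to 3 (chr13:119335448-119408997, minus strand). All flight libraries were above ground, by a log2 fold change of 0.50 ± 0.08 (SE, adjusted p = 0.0209 by edgeR). It was the 1 called of 5 tested genes that are known to differ between C57BL/6 substrains, and supplier and flight cannot be told apart here. Both suppliers' mice had reads over Nnt, and exons were not counted separately in the values used.

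**Figure D2:**
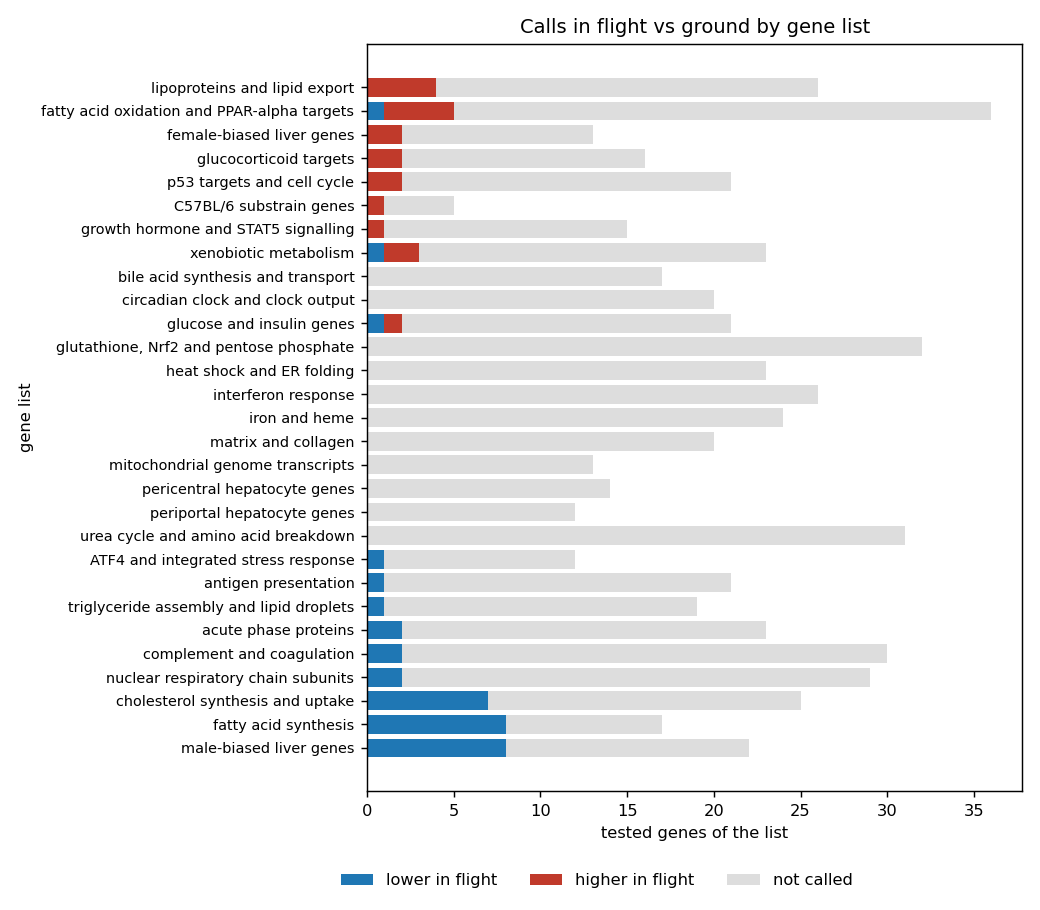
Each bar is 1 of the 29 pathway lists, its length the number of tested genes on a linear axis from 0, with genes called lower in blue, called higher in red and not called in grey. The lists of male-biased genes, fatty acid synthesis and cholesterol synthesis hold 8, 8 and 7 genes called lower and none called higher.

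Several large changes lay outside the lists. Slc16a7 (chr10:125219270-125389465, minus strand), a transporter of pyruvate, lactate and ketone bodies, had 91.4, 76.9 and 81.6 CPM in GC 1 to 3, 162, 192 and 177 CPM in MG 1 to 3 and 153, 124 and 164 CPM in AG 1 to 3. No flight library overlapped ground, and the log2 fold change was 0.95 ± 0.11 (adjusted p = 0.0101 by edgeR). Cyp2j9 rose from 4.93, 5.36 and 3.45 CPM to a lowest of 6.96, a median of 11.8 and a highest of 12.96 CPM (1.25 ± 0.22), and Syt3, a synaptotagmin, from 3.75, 5.04 and 5.85 CPM to a lowest of 6.10, a median of 9.30 and a highest of 15.5 CPM (0.99 ± 0.20).

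Fam25c was called in 21 of 23 settings, as were Mup1 and Pmvk, while the 54 named called genes went down to 11 of 23 for Socs2 and Saa1 and 12 of 23 for Igfbp2, Gadd45g and Cyp4a31. Its levels were 28.4, 26.3 and 33.3 CPM in GC 1 to 3, 9.84, 9.69 and 8.85 CPM in MG 1 to 3 and 16.6, 9.08 and 10.9 CPM in AG 1 to 3. AG 1 was the nearest flight library and still far below ground (log2 fold change -1.45 ± 0.17, adjusted p = 0.0101 by edgeR). Serpina12, the adipokine vaspin, fell from 29.8, 26.5 and 22.7 CPM to a lowest of 4.49, a median of 7.92 and a highest of 16.7 CPM (-1.59 ± 0.31), and the carboxylesterase Ces4a from 7.04, 9.14 and 6.60 CPM to a lowest of 1.22, a median of 2.81 and a highest of 3.43 CPM (-1.56 ± 0.27). Asns, asparagine synthetase and a target of ATF4, fell from 7.97, 4.73 and 7.504 CPM to a lowest of 0.622, a median of 1.95 and a highest of 3.04 CPM (-1.89 ± 0.36), as the 1 called of 12 genes of the integrated stress response, and the call was lost without any 1 MG library. Retsat, retinol saturase, Gk, glycerol kinase, and Cdh1, E-cadherin, were named after their values were seen and changed by 0.91 ± 0.13, 0.66 ± 0.09 and -1.11 ± 0.15 on the log2 scale, each without overlap.

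**Figure D3:**
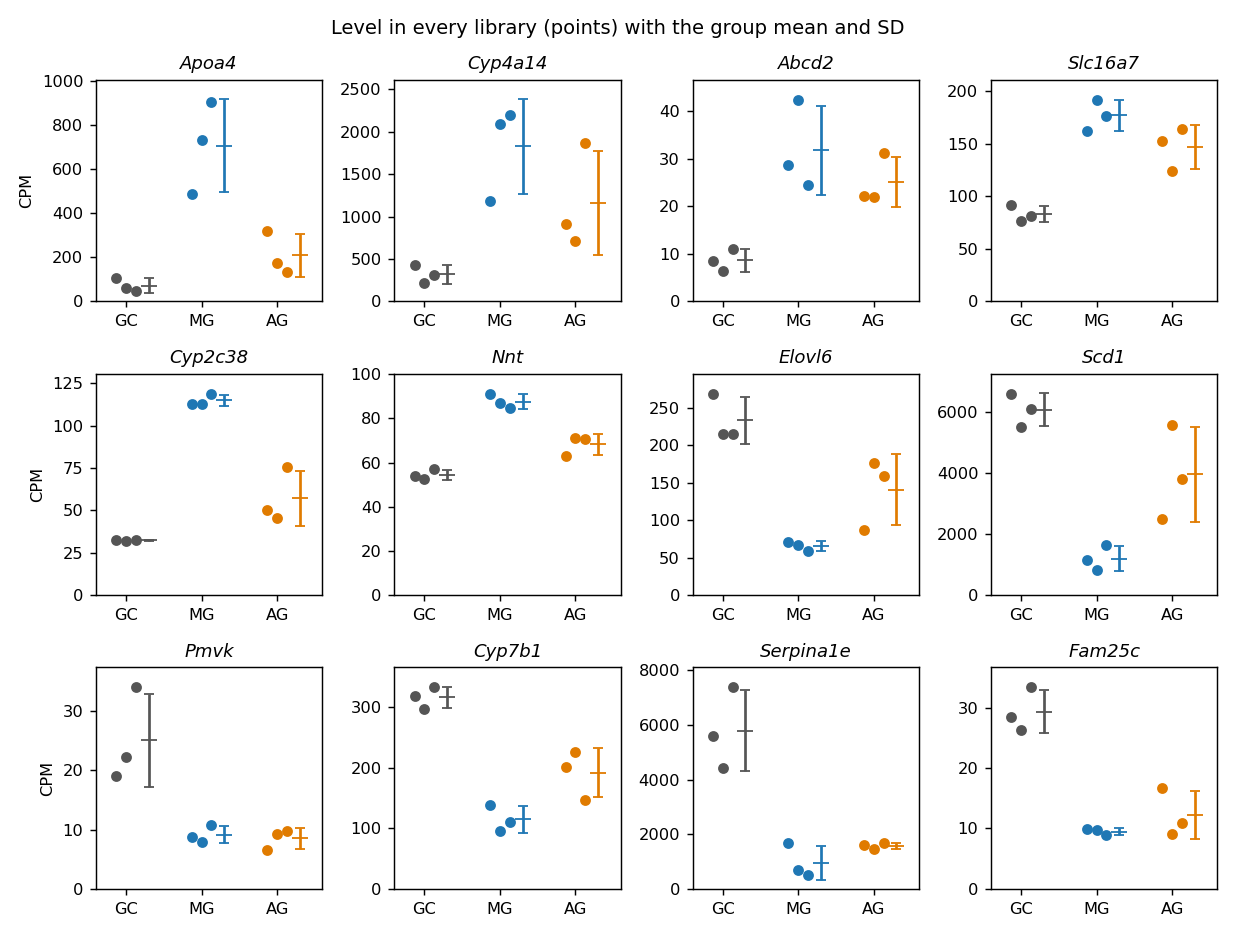
CPM of 12 genes in every library, in GC, MG and AG from left to right, each panel with its own linear axis from 0, points for libraries and bars for the group mean and SD (n = 3). The flight libraries of Apoa4, Cyp4a14, Abcd2, Slc16a7, Cyp2c38 and Nnt lie above all GC libraries, and those of the other 6 genes lie below them except for AG 2 of Scd1.

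Some called genes were neighbours of other called genes, in 11 runs with gaps of at most 500 kb, which was not tested for clustering. Within that distance of each other on chromosome 4 lay Mup2, Mup8, Mup1 and Mup11 in one run and Mup14, Mup16, Mup17, Mup18 and Mup21 in another, all lower. These stretches held 7 and 14 tested genes. In the Cyp4a cluster of the same chromosome Cyp4a14 and Cyp4a31 rose and Cyp4a12b fell. On chromosome 12 Serpina6 rose and Serpina1e and Serpina12 fell. Other runs were Cyp2c38 with Cyp2c67, Ces2c with Ces4a, Gm35986 with Elovl6, Hsd11b1 with G0s2, Cyp2d9 with Cyp2d26 and Cyb5r3, Aox3 with Ndufb3, and Lama3 with Ttc39c, named after their values were seen. Chromosome 4 held 20 of the 119 calls, 2.57% of its 779 tested genes, among them the Mup genes, several of which share reads.

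In 11 of the 29 lists edgeR called 0 genes, while DESeq2 called between 0 and 6 in each and limma-voom 1 in 1 of them. Of these, the list of the interferon response had 0 genes at an unadjusted p below 0.05, and those of the circadian clock, the urea cycle and the heat shock response had 2 each. Per2, a clock gene, had 104, 86.3 and 121 CPM on the ground and a lowest of 65.8, a median of 103 and a highest of 116 CPM in flight (-0.13 ± 0.14, adjusted p = 0.751). The other lists were those of bile acids (7 at an unadjusted p below 0.05), glutathione and Nrf2 (12), iron (3), mitochondrial genome transcripts (4), pericentral (2) and periportal (6) hepatocytes, and matrix (1). The members with the smallest p were Tkt, the transketolase of the pentose phosphate pathway, with -0.41 ± 0.08 (adjusted p = 0.0527 by edgeR), Hsd17b13, a lipid droplet enzyme, with 0.42 ± 0.09 (adjusted p = 0.0553), and Cyp1a2, a pericentral monooxygenase, with -0.51 ± 0.11 (adjusted p = 0.0559). Rora, a nuclear receptor of the clock, had 0.36 ± 0.08, the iron exporter gene Slc40a1 0.70 ± 0.16, the bile acid and conjugate exporter gene Abcc3 0.44 ± 0.11, and Ifit3, an interferon-induced gene, -0.62 ± 0.28 (adjusted p = 0.0723, 0.0768, 0.111 and 0.407). Among the lists of cell markers the 1 call was Alas2, the heme synthesis enzyme of red cells (-0.60 ± 0.12, adjusted p = 0.0468 by edgeR). Its AG 2 library, at 91.8 CPM, lay within the ground range.

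The direct comparison of MG with AG asks whether the shared differences from ground differed in size with gravity. EdgeR called 0 of 11884 genes (0%) between MG and AG, where 1165 had an unadjusted p below 0.05 and the smallest adjusted p was 0.0606. DESeq2 called 97 genes, limma-voom 2 and edgeR with its robust setting 8, and edgeR called 130 without AG 3, 7 without AG 1 and 6 without GC 2. Among the 119 genes called against ground, 50 had an unadjusted p below 0.05 between MG and AG, and for 83 the 95% interval of the difference excluded a 2-fold change either way. Over all 11884 tested genes these counts were 1165 and 9547, so the called genes excluded a 2-fold change less often than tested genes in general. MG lay farther from ground than AG for 100 of the 119 (84%), and for 53.7% of all tested genes. For genes called higher the median log2 fold change was 0.77 in MG and 0.62 in AG, and for genes called lower -1.23 and -0.74, all against the same GC libraries.

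Named genes covered the whole range between equal and unequal changes. Apoa4 was higher by 3.30 ± 0.40 (SE) in MG and 1.54 ± 0.37 in AG against the same ground libraries, with a difference of 1.76 (95% interval 0.95 to 2.58) and an adjusted p of 0.206 by edgeR. Scd1 had -2.34 ± 0.30 and -0.62 ± 0.29, with a difference of -1.72 (95% interval -2.37 to -1.08), and Ces2c -2.07 ± 0.20 and -0.61 ± 0.19, with a difference of -1.46 (95% interval -1.91 to -1.01). By contrast Pmvk had -1.45 ± 0.23 and -1.55 ± 0.24, and its difference of 0.10 (95% interval -0.45 to 0.64) excluded a 2-fold gap. The same held for Trp53inp1, with 0.96 ± 0.17, 0.85 ± 0.17 and a difference of 0.11 (95% interval -0.26 to 0.47). Cyp4a31, Foxo1 and Serpina6 were among the genes farther from ground in AG, with differences of -0.57 (95% interval -1.03 to -0.11), -0.26 (95% interval -0.48 to -0.03) and -0.32 (95% interval -0.59 to -0.04).

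The flight library nearest to ground was AG 2 for 54 of the 119 genes, AG 1 for 23 and AG 3 for 16, and an MG library for the other 26. The nearest ground library was GC 1 for 46, GC 3 for 39 and GC 2 for 34. The 8 called genes whose libraries overlapped were Cyp4a12b, Scd1, Igfbp2, Tgfbr2, Saa1, Msmo1, Aatk and Alas2, all lower in flight.

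**Figure D4:**
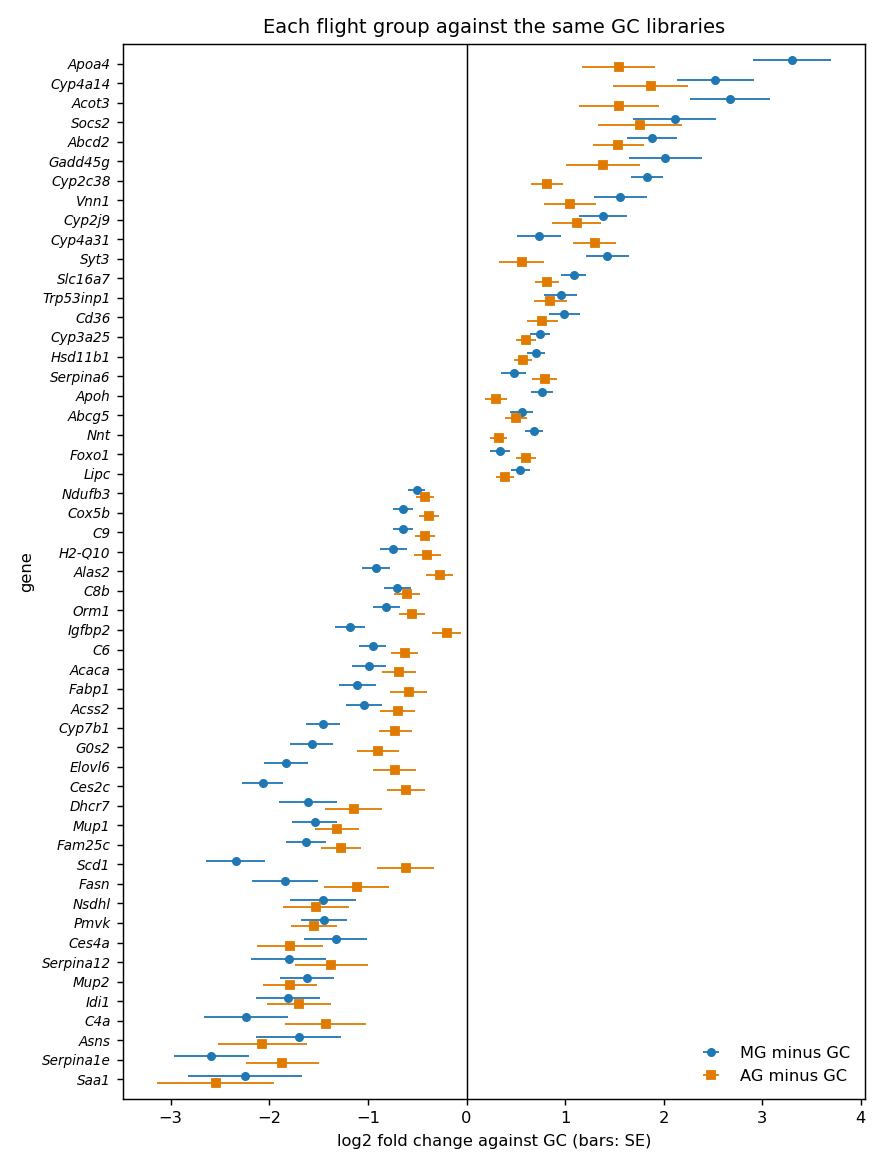
Log2 fold changes of MG (circles) and AG (squares) against the same GC libraries for 53 named genes called in flight vs ground, on a linear axis of log2 values with bars for the SE. Both groups lie on the same side of 0 for all 53 genes, and MG is the farther one for most, with Apoa4 at 3.30 and 1.54.

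Reads in introns, which come mostly from unspliced transcripts, gave a second readout of the same libraries. In unique intron reads 29 of 10630 genes were called (0.273%), 11 higher (0.103%) and 18 lower (0.169%). Of the 119 called genes 101 had introns that could be tested, and 94 of these had the same direction in introns as in gene counts. In introns 12 were called in the same direction and 0 in the other, by edgeR. For 32 of the 101 all flight libraries lay on the side of ground given by the call. Of all genes tested in introns 4.36% had no overlap, with either side counted. The share with the same direction over all genes was not counted. The 101 were picked by gene counts of the same libraries, so their agreement is no independent support. The genes called in both were Abhd2 and Trp53inp1, which rose, and Fasn, C4a, Cyp2d9, Cdh1, Tlcd2, Mup1, Mup11, Mup14, Mup16 and Mup17, which fell. When single ground libraries were left out, the number of genes called in introns was 14 (GC 1 omitted), 6 (GC 2) and 1 (GC 3). It became 18 when MG 1 was omitted, 9 for MG 2, 45 for AG 1, 11 for AG 2 and 205 for AG 3.

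The intron changes of the main genes stood beside those of their gene counts. Fasn had -2.001 ± 0.34 (SE) in introns (adjusted p = 0.0367 by edgeR), and Trp53inp1 1.15 ± 0.20 (adjusted p = 0.0405). Pmvk had -1.66 ± 0.36 (adjusted p = 0.106) and Socs2 2.26 ± 0.48 (adjusted p = 0.0934), neither of them called. Cyp4a14 had 2.75 ± 0.66 with all flight libraries above ground and was not called (adjusted p = 0.135). Cyp7b1 differed in sign, with -1.09 ± 0.14 in gene counts and 0.23 ± 0.55 in introns (adjusted p = 0.945). Lipc and Nnt had -0.12 ± 0.25 and 0.16 ± 0.14 in introns, and Retsat 0.03 ± 0.25. Igf1, which had -0.01 ± 0.11 in gene counts, had 1.56 ± 0.57 in introns with overlapping libraries and was not called (adjusted p = 0.399 by edgeR). On the other strand Igf1 overlaps Igf1os.

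**Figure D5:**
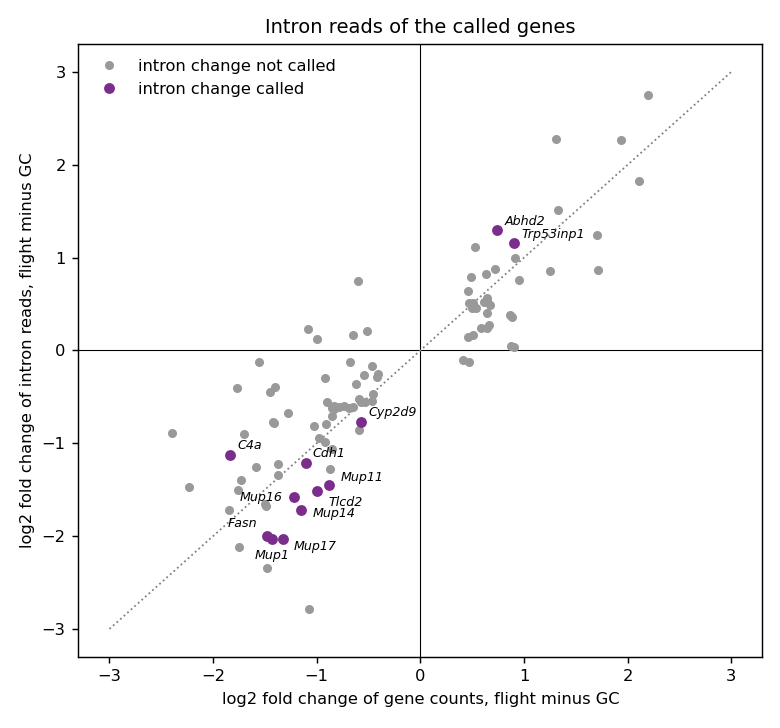
Log2 fold change of gene counts (x axis) against that of unique intron reads (y axis), flight minus GC, for the 101 called genes with tested introns, with the line of equal change dotted. The 12 genes called in both are named, and 94 of the 101 points lie in the quadrants where both changes have the same sign.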

How the data were processed

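Liver RNA of 3 groups of 3 libraries was sequenced. The deposited table gives whole-number counts per gene and library, not normalized or pooled, per the file headers. The submitters' processing notes name GRCm38 and mm10, while the aligner, counter and strand setting are not stated there. Gene positions come from that table, with starts turned from counting from 0 to counting from 1. Another 90 columns of per-library values were not used. The expression-value columns were taken as counts, and unique intron reads were tested separately.

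Genes were filtered with filterByExpr and scaled by TMM in edgeR 4.0.16 (R 4.3.3), and the mean of MG and AG was tested against GC by the quasi-likelihood F test with 1 coefficient per group, 6 residual degrees of freedom and Benjamini-Hochberg adjustment over 11884 genes. MG minus AG came from the same fit. The biological coefficient of variation was 16.7%. A fitted log2 fold change is given ± SE, and intervals are at 95%. No pair of libraries of the same group agreed within sampling noise. The scripts were tested on simulated data. DESeq2 1.42.0, limma-voom 3.58.1, other scalings, filters, models and read classes, and leaving out each library in turn were the alternatives.

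The groups, the 29 pathway lists and the 11 marker lists were chosen with earlier results of these data known, so a list's count is no independent evidence. Named genes were the 12 largest rises and 12 largest falls among called genes without overlap whose higher group averaged 50 counts or more, up to 4 called members per list by smallest p (or the member with the smallest p), and 12 fixed genes. Promoter windows came from RefSeq on GRCm38.p6, and 87 of the 119 called genes had one. Results for a few genes are not reported here.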

Additional observations from a re-analysis of the deposited data

Results flagged for a closer look

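Among 90 sets of 6 flight libraries (levels of named genes and summed markers), 15 had 1 library whose gap to the nearest other exceeded 0.625 of the range of the set, the critical value for 6 values. Chance alone gives about 1 in 20 such sets when the 6 values come from 1 normal distribution. Here each set pooled MG and AG, and some sets shared genes, so that rate need not hold. Of the 15 sets, 8 were at AG 1. These were values of single libraries, and their cause was not tested.

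In AG 1 the macrophage markers summed to 1446.5 CPM, and to 293 to 395 CPM in the other 5 flight libraries, and the scavenger receptor gene Marco had 278 CPM against 3.23 to 5.97 CPM. The neutrophil markers summed to 14.0 CPM against 0.613 to 2.6 CPM, with Csf3r, the receptor of granulocyte colony-stimulating factor, at 8.69 CPM against 0.306 to 1.81 CPM. The lymphocyte markers summed to 10.4 CPM against 1.02 to 3.78 CPM. Lyve1, a sinusoidal endothelial marker, had 26.2 CPM against 12.7 to 17.4 CPM, and Ifit3 had 5.49 CPM against 2.14 to 3.17 CPM. Among called genes, Fam25c had 16.6 CPM in AG 1 against 8.85 to 10.9 CPM.

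Another 4 genes had their highest flight level in AG 2. Acss2 had 99.3 CPM against 56.4 to 71.1 CPM, C9 had 527 CPM against 394 to 442 CPM, and Ndufb3 had 37.4 CPM against 32.7 to 34.2 CPM, each nearer to ground than the other flight libraries. Hnf4a, the hepatocyte transcription factor, had 1583.5 CPM against 1239.6 to 1363.9 CPM. In MG 2 the skeletal muscle markers summed to 475 CPM against 0.746 to 99.4 CPM, Tnnc2, a troponin gene of fast muscle, had 9.44 CPM against 0 to 2.59 CPM, and Gadd45g had 60 CPM against 20.4 to 24.8 CPM.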

How the results depend on the processing

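The 119 genes called in flight vs ground (42 higher, 77 lower) kept their direction in all alternatives in which they were tested, and the median ratio of their log2 fold changes to those reported was 0.981 to 1.04. For the 111 of them without overlap, leaving out libraries could hardly have reversed the direction. The count was 215 (76 higher, 139 lower) with no filter, 322 (138 and 184) with DESeq2, 13 (4 and 9) with flight as 1 group, 23 (7 and 16) against a least fold change of 1.2, and 0 (0 and 0) at an adjusted p below 0.01. It was 21 (1 and 20) without the 4 libraries highest in muscle markers, where the lone ground library is assumed to vary like the other groups, and 93 with muscle markers as a covariate. Leaving out 1 library gave 0 to 229 genes (0 to 91 higher, 0 to 138 lower), so which calls pass depends on single ground libraries at this depth and number. Intron calls numbered 399 with no filter, 18 with total intron reads and 1 to 205 with 1 library left out. Genes on one side of ground numbered 956 to 1638 with 1 library left out. Fewer libraries overlap less easily, so counts above the reported 831 are no support.

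MG and AG differed in 38 genes with no filter, 97 with DESeq2, 2 with limma-voom, 8 with edgeR's robust setting, 1 without the 4 libraries, and 0 to 130 with 1 library left out. With the replicate block flight vs ground gave 130 genes (46 higher, 84 lower), MG vs AG 1 and introns 43. Correlations were taken of what was left of log2 CPM once each gene's mean in the library's own group was subtracted. On these deviations same-numbered libraries correlated between -0.28 and 0.48, over 0.1 in 5 of 9 pairs. Differently numbered libraries of different groups correlated on them between -0.59 (GC 3 with MG 2) and 0.38 (GC 3 with MG 1). Whether a shared number stands for a shared batch was not tested.

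Reversed log2 fold changes were all of genes not called. Csf3r had -0.061 with limma-voom, -0.14 without the 4 libraries and -0.42 to 0.87 with 1 library left out. Ctrb1 had 0.36 with flight as 1 group and 3.56 without the 4 libraries, where Cfd had 0.88 and Igf1 0.089. With total exon reads, chosen after seeing the data, Timp3 had -0.011 and Igf1 0.0075, and Igf1 ranged from -0.070 to 0.037 with 1 library left out. The causes were not tested, and the alternative for normalized values did not apply to counts.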
